A study of Rattus norvegicus with 24 samples.

Results

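The comparison described here sets nucleus accumbens (NAc) RNA of F2 rat pups descended from dams treated with oxycodone (oxy) before, during and after pregnancy (IUO) against that of F2 pups descended from dams treated only after giving birth (PNO). It rests on 8 of the 24 RNA-Seq libraries of the series, 4 F2 IUO and 4 F2 PNO, and on the 13535 of 23950 listed genes that reached 1 FPKM in 4 or more of the 8. Sprague Dawley F0 dams of the IUO lineage received oral oxy at 10 mg/kg/day for 5 days, raised by 0.5 mg/kg/day over 10 days to 15 mg/kg/day, were then mated, and stayed on the drug through gestation and until weaning. F0 dams of the PNO lineage received 15 mg/kg/day from parturition until weaning. Their F1 daughters were left untreated and mated with naive males, so no F2 pup of either group was dosed, and the F1 mothers of both groups had themselves been nursed by a dam on oxy. Tissue was cut with a brain matrix at postnatal day 14, and each library of a group came from a separate litter. Pups of either sex were chosen at random, and the labels give no sex for a library. The 4 F2 saline (SAL) libraries are given as levels only, beside the others, since they belong to another comparison.

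The NAc is the ventral part of the striatum. Most of its neurons are GABAergic projection neurons that carry dopamine receptors, opioid receptors and opioid peptides, and it weighs dopamine from the ventral tegmental area against glutamate from cortex, amygdala, thalamus and hippocampus. Neuropeptides from the hypothalamus, among them orexin (hypocretin, encoded by Hcrt) and MCH (encoded by Pmch), act on it through G protein-coupled receptors.

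FPKM scales the fragments of a gene to its length and to the size of the library. A gene was called when limma gave an unadjusted p under 0.05 on log2(FPKM + 0.1) and the ratio of mean FPKM was 2-fold or more in either direction. With 4 libraries against 4, the exact permutation test cannot give a p under 0.0286. All log2 values are IUO minus PNO on that scale, with the standard error (SE). The added 0.1 compresses low values, and where single libraries are at or near 0 the log2 difference can still exceed the ratio of means. Read totals are unknown, counting error therefore cannot be stated, and a gene with a value of 0 is called listed at 0.

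Striatal genes were present in all 8 libraries. The summed FPKM of the 43 striatal projection neuron genes in the files, which include Drd1, Drd2, Ppp1r1b and Penk, ran from 1202 to 2174 in IUO and from 1838 to 2273 in PNO. RNA of other tissues was not evenly spread. The summed level of choroid plexus genes was 12882 in IUO replicate 1 and 7306 in PNO replicate 4, against 131 to 195 in the other 6 libraries. PNO replicate 4 also held pituitary hormone RNA. Gh1, which encodes growth hormone, stood at 4682 FPKM there and at 4.79 or less in the other 7 libraries. Pomc, the precursor of corticotropin and beta-endorphin, stood at 818 FPKM there and at 5.38 or less elsewhere, and the summed level of 8 pituitary genes was 6750 against 3.67 to 17.9 in the other 7. These 8 genes were picked after their values were seen. The summed FPKM of the listed Y-linked genes was 30.5 to 37.0 in IUO replicates 2 to 4, 30.2 in PNO replicate 4 and 0.66 or less in the other 4 libraries. Eif2s3y and Ddx3, both Y-linked, were called higher in IUO with this unequal division. By this RNA, sex and lineage are partly confounded for every gene below. With a covariate of Y-linked genes, added after seeing the data, 73 genes were called, against 119 without it. Hypothalamus and preoptic genes summed to 719 FPKM in IUO replicate 3 and, with Pomc in the list, to 1257 in PNO replicate 4. They summed to between 251 and 438 in the other 6 libraries and to between 265 and 572 in F2 SAL. PNO replicate 1 had the lowest sum of cortical excitatory neuron genes (325, against 599.8 to 1085 in the other 7) and the highest sum of myelin and oligodendrocyte genes (5287, against 1637 to 3602). Of the FPKM in a library, mitochondrially encoded genes took 25.7% to 33.7% in IUO and 29.8% to 41.8% in PNO, again highest in PNO replicate 1. How far these differences enter each result below was not tested beyond the values given without libraries or with the covariate of Y-linked genes.

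**Figure D1:**
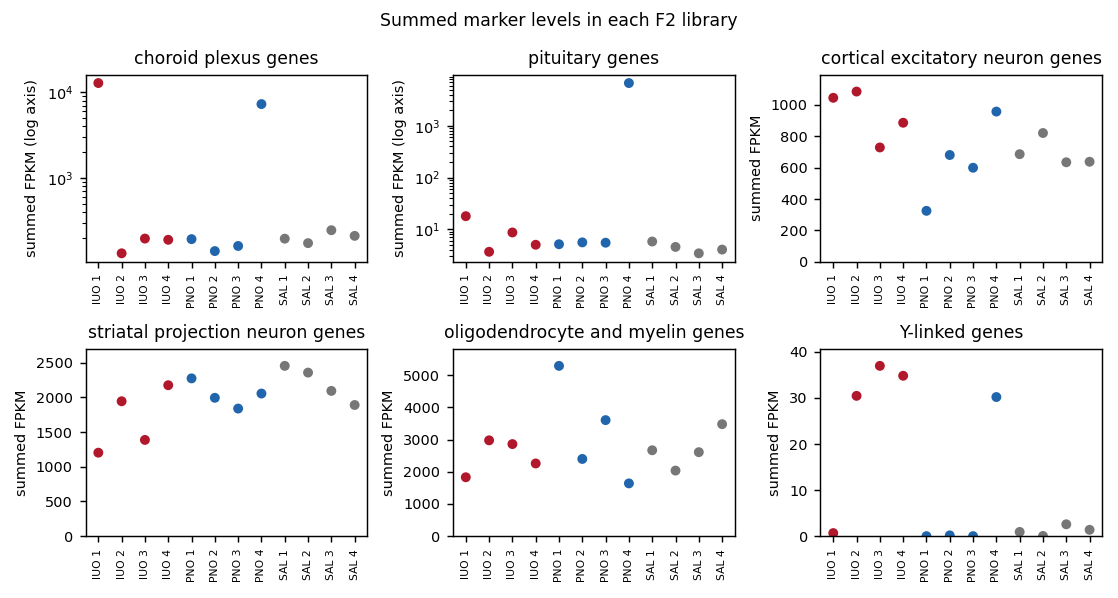
Summed FPKM of 6 groups of marker genes in each F2 library (IUO red, PNO blue, SAL grey; the choroid plexus and pituitary axes are logarithmic). IUO replicate 1 and PNO replicate 4 stand apart in choroid plexus genes, and PNO replicate 4 alone stands apart in pituitary genes, at 6750.

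Of the 13535 genes, 119 (0.879%) were called, 60 (0.443%) higher and 59 (0.436%) lower in IUO. After Benjamini-Hochberg adjustment 0 genes had a limma p under 0.05, and the smallest adjusted p was 0.452. Without adjustment 1027 genes (7.59%) were under 0.05, 746 (5.51%) higher and 281 (2.08%) lower in IUO. With 1 library left out this count ran from 587 (without PNO replicate 2) to 1280 (without PNO replicate 4), the higher genes from 425 (without IUO replicate 1) to 955 (without PNO replicate 4) and the lower genes from 147 (without PNO replicate 2) to 542 (without PNO replicate 1). For 691 genes (5.11%), 476 (3.52%) higher and 215 (1.59%) lower, every IUO library lay on one side of every PNO library. Each gene below is therefore named at an unadjusted p, and none had an adjusted limma p under 0.05 in this fit of the 8 libraries.

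The direction of the genes under 0.05 depended on how strongly they were expressed. Among the 1619 genes with a mean of 50 FPKM or more, 17.2% were higher and 1.67% lower in IUO at an unadjusted p under 0.05. Among the 1780 genes with a mean under 2 FPKM, 0.674% were higher and 2.53% lower. The median log2 difference moved from -0.16 in the latter to 0.13 in the former, while the median of all genes was 0.01. Called genes followed the same order, since 33 of the 59 called lower had a mean under 2 FPKM, and 20 of the 59 were listed at 0 in at least 1 IUO library. The share of higher genes among those under 0.05 was 72.6% with FPKM as deposited, 68% after median-ratio rescaling and 51.8% after upper-quartile rescaling. It was 43.1% after rescaling without the mitochondrially encoded genes. The last rescaling was chosen after seeing the data. The excess of higher genes thus depended on which rescaling was used, and median-ratio rescaling kept most of it. The median of all genes was 0.01, 0.006, -0.04 and -0.07 in the same order. Among the called genes the share lower in IUO was 49.6%, 51.2%, 60.3% and 65.8% in the same order. With 1 library left out it ran from 31.7% without PNO replicate 4 (125 higher, 58 lower) to 66.9% without PNO replicate 1 (49 higher, 99 lower).

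**Figure D2:**
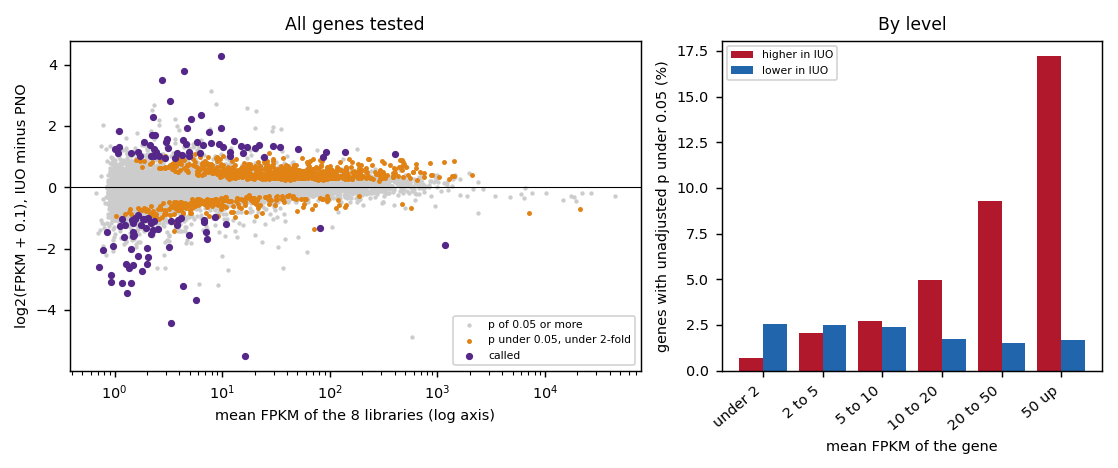
Left, log2 difference of each gene (IUO minus PNO) against its mean FPKM over the 8 libraries on a log axis, with called genes in purple and other genes with an unadjusted p under 0.05 in orange. Right, the percent of genes in each range of mean FPKM with an unadjusted p under 0.05, which rises from 0.674% to 17.2% for genes higher in IUO.

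Hcrtr1 and Ntsr1, both higher in IUO, were the 2 of 25 neuropeptide receptor genes with an unadjusted p under 0.05, a share near the 7.59% of all genes. Both were called, beside 0.879% of all genes. Of the 25, 14 had a difference above 0 and 11 below, with a median log2 difference of 0.12. Of 33 neuropeptide precursor genes tested, 6 had an unadjusted p under 0.05, all higher (Vgf, Nppa, Gal, Nppc, Nxph4 and Adcyap1), beside 5.51% of all genes. The differences of 20 precursors were above 0 and those of 13 below, and the median was 0.34. Of these 6, Nxph4 and Adcyap1 were called, 2 of the 33 beside 0.879% of all genes. Under the gene ontology term neuropeptide signaling pathway, 47 genes were tested and 4 were called, all higher, beside 0.443% of all genes. They were Hcrtr1, Ntsr1 and Adcyap1, already counted in the lists above, and the kisspeptin receptor gene Kiss1r.

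Hcrtr1, the type 1 receptor for orexin, was at 3.32, 3.20, 3.46 and 2.63 FPKM in the IUO libraries and at 1.79, 1.59, 0.96 and 1.59 in the PNO libraries. All IUO libraries lay above all PNO libraries. The means were 3.15 ± 0.364 and 1.48 ± 0.361 FPKM (SD, n = 4), a 2.13-fold difference (log2 1.07, SE 0.27, limma p = 0.00336, exact permutation p = 0.0286, adjusted p = 0.494). Unadjusted p stayed under 0.05 in all 20 alternatives that refitted it, and the largest p with a library left out was 0.0123. F2 SAL libraries ranged from 1.82 to 3.40 FPKM and overlapped both groups.

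Hcrt itself, the orexin precursor, was at 9.15, 16.1, 8.61 and 0.45 FPKM in IUO and at 1.87, 2.71, 3.14 and 0.92 in PNO. IUO replicate 4 was below every PNO library while the other 3 were above them all, so the groups overlapped (log2 1.32, SE 0.95, limma p = 0.198, exact permutation p = 0.343). Without IUO replicate 4 the unadjusted limma p was 0.000467, but this was the only 1 of 20 alternatives under 0.05. Without IUO replicate 2 the limma p was 0.449. The gene for the second orexin receptor, Hcrtr2, was under the minimum level, with 0.657 ± 0.390 FPKM in IUO and 0.700 ± 0.380 in PNO (SD, n = 4).

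Ntsr1, a neurotensin receptor, was at 4.18, 2.25, 2.67 and 1.66 FPKM in IUO and at 0.97, 1.20, 0.20 and 1.85 in PNO. Only PNO replicate 4 reached into the IUO range. The log2 difference was 1.48 (SE 0.58, limma p = 0.0305, exact permutation p = 0.0571), and the limma p rose to 0.0865 without IUO replicate 1. Kiss1r was at 3.51, 1.68, 3.52 and 3.12 FPKM in IUO and at 1.26, 0.70, 1.97 and 1.84 in PNO, with IUO replicate 2 inside the PNO range. Its log2 difference was 1.02 (SE 0.39, limma p = 0.0278, exact permutation p = 0.0857), and the limma p rose to 0.0727 without IUO replicate 3.

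Adcyap1 encodes PACAP, a peptide with roles in stress and fear. It was at 5.60, 6.29, 7.74 and 3.16 FPKM in IUO and at 1.1, 3.05, 3.25 and 3.87 in PNO. IUO replicate 4 lay inside the PNO range. The log2 difference was 1.05 (SE 0.42, limma p = 0.0325, exact permutation p = 0.0857), and p rose to 0.0895 without IUO replicate 3. Nxph4, a neurexophilin that binds neurexins, was at 3.66, 5.93, 5.75 and 11.8 FPKM in IUO and at 2.95, 2.53, 3.02 and 3.53 in PNO, without overlap (log2 1.03, SE 0.33, limma p = 0.0118, exact permutation p = 0.0286). With a covariate of Y-linked genes, an alternative added after seeing the data, the limma p of Nxph4 was 0.109. Nppc, the precursor of C-type natriuretic peptide, was at 12.9, 7.79, 6.41 and 12.3 FPKM in IUO against 2.79, 4.79, 6.92 and 5.43 in PNO (log2 0.98, SE 0.32, limma p = 0.0141, exact permutation p = 0.0571). Its ratio of means, 1.98, fell just short of the fold that a call needs. Gal, which encodes galanin, was at 4.51, 6.95, 12.1 and 4.85 FPKM in IUO and between 3.75 and 4.23 in PNO. The groups did not overlap, but the p of 0.0470 from limma became 0.112 without IUO replicate 3.

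**Figure D3:**
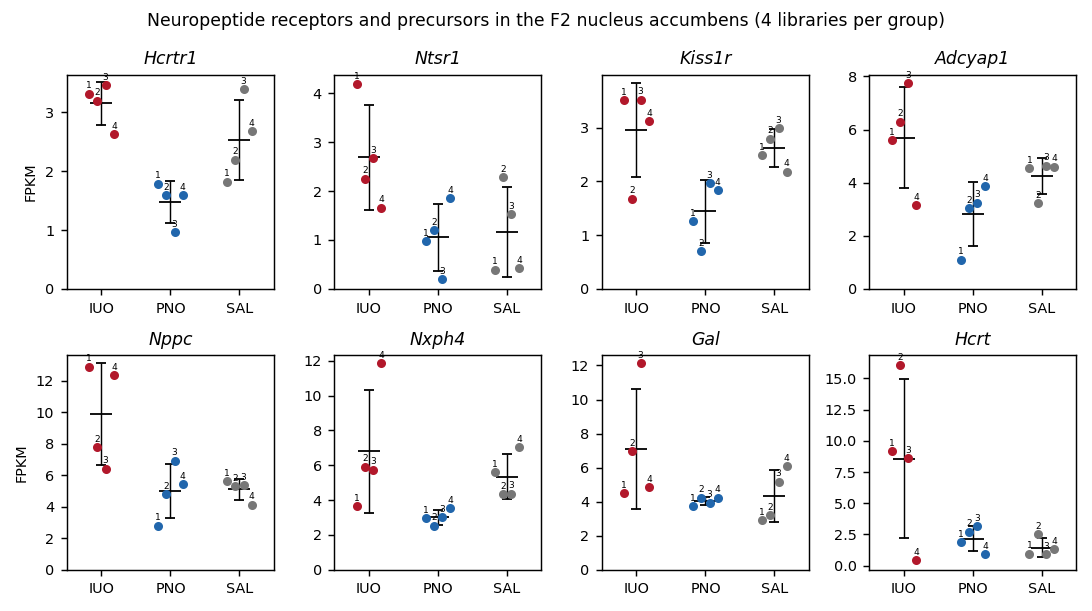
FPKM of 8 neuropeptide receptor and precursor genes in each F2 library (points, numbered by replicate) with the group mean and SD (black). The IUO and PNO points of Hcrtr1, Nxph4 and Gal do not overlap, whereas those of Ntsr1, Kiss1r, Adcyap1, Nppc and Hcrt do.

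Pmch and Avp, peptide genes typical of the hypothalamus, varied widely within both groups. Pmch was at 0.47, 27.9, 11.5 and 0 FPKM in IUO and at 0.59, 2.5, 16.1 and 1.22 in PNO (log2 -0.26, SE 1.73, limma p = 0.883, exact permutation p = 0.886), and its direction turned in 5 of 20 alternatives. Avp, the vasopressin precursor, was at 4.44, 16.1, 85.6 and 3.97 FPKM in IUO and at 47.6, 1.92, 1.48 and 5.50 in PNO (log2 1.23, SE 1.23, limma p = 0.345, exact permutation p = 0.486). Pdyn, which encodes the opioid peptide precursor prodynorphin and is expressed by striatal projection neurons, was at 21.9, 41.2, 28.9 and 53.0 FPKM in IUO and at 59.3, 40.9, 36.4 and 31.7 in PNO (log2 -0.25, SE 0.29, limma p = 0.404, exact permutation p = 0.543). Of 23 hypothalamic and preoptic genes tested, 1 (Gal) had an unadjusted p under 0.05, beside 7.59% of all genes.

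The study's own biological process terms for these groups hold 28 genes, which were chosen on these same libraries and so give no independent evidence of a direction. Of them 11 passed the level minimum, and 6 of the 11 were called, beside 0.879% of all genes tested. They were Hcrtr1, Ntsr1, Adcyap1, Nov and Alox15, higher in IUO, and Ndufaf2, lower in IUO. Alox15, which encodes a lipoxygenase, was between 1.89 and 3.14 FPKM in IUO and between 0.59 and 1.79 in PNO, without overlap (log2 1.14, SE 0.40, limma p = 0.0181, exact permutation p = 0.0286), and the limma p was 0.0514 without IUO replicate 4. The other 17 were under the minimum, and the groups of 7 of these did not overlap, beside 5.11% of all genes tested. No such share was counted over all genes under the minimum. Since the genes were chosen on these libraries, neither count is a test of them. Agrp, which encodes an appetite-stimulating peptide, was among the 17, at 0.75, 2.99, 2.08 and 1.32 FPKM in IUO and 0.61, 0.27, 0.61 and 0.43 in PNO. Otp, a hypothalamic transcription factor gene, was also under the minimum, at 9.97 FPKM in IUO replicate 3 and between 0.27 and 1.60 in the other 7 libraries. Several term genes were high in the library with pituitary RNA alone. In PNO replicate 4, Tbx19, a corticotroph transcription factor gene, stood at 5.25 FPKM and at 0.86 or less elsewhere. Sytl4 was at 6.42 there and 0.55 or less elsewhere, and Scn7a at 2.46 there and 0.53 or less elsewhere. Gh1 and Pomc, with the values given above, had limma p values of 0.11 and 0.481, and no fit without that library is reported for either. Pomc was at 4.39, 2.06, 5.38 and 4.21 FPKM in IUO and at 2.21, 2.33 and 1.67 in PNO replicates 1 to 3. Its log2 difference of -1.29 thus took its sign from PNO replicate 4.

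The smallest limma p of all genes tested belonged to Vstm2l, whose product is a secreted antagonist of humanin. It was at 160, 146, 165 and 164 FPKM in IUO and at 82.5, 86.0, 87.8 and 108 in PNO. The groups were well apart, with means of 158.8 ± 8.66 and 91.1 ± 11.5 FPKM (SD, n = 4), but the ratio of 1.74 was under the fold of the rule (log2 0.81, SE 0.11, limma p = 5e-05, exact permutation p = 0.0286, adjusted p = 0.452). F2 SAL libraries lay between 138 and 174 FPKM, in and around the IUO range.

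Rprm, which encodes the p53-induced cell cycle inhibitor reprimo, was at 67.0, 44.4, 35.1 and 45.6 FPKM in IUO and at 10.7, 24.2, 16.9 and 29.0 in PNO. It met the rule in all 20 alternatives (2.38-fold, log2 1.30, SE 0.31, limma p = 0.00231, exact permutation p = 0.0286). Gpx4, the glutathione peroxidase that reduces lipid peroxides, was at 87.5, 154, 65.3 and 162 FPKM in IUO and between 47.1 and 61.6 in PNO. It was 2.12-fold higher, with IUO replicates 2 and 4 far above the other 2 (log2 0.99, SE 0.28, limma p = 0.00617, exact permutation p = 0.0286). Erc1, an active zone scaffold gene, was at 13.2, 12.8, 9.55 and 9.65 FPKM in IUO and at 0.78, 4.78, 4.04 and 5.82 in PNO (2.93-fold, log2 1.82, SE 0.54, limma p = 0.00793, exact permutation p = 0.0286), and the limma p of Erc1 was 0.055 with the covariate of Y-linked genes. Bhmt, which remethylates homocysteine to methionine, was at 5.93, 6, 2.23 and 3.57 FPKM in IUO and at 0.41, 2, 0.92 and 3.69 in PNO, with overlap (log2 1.56, SE 0.61, limma p = 0.0302, exact permutation p = 0.0857), and the limma p rose to 0.0780 without IUO replicate 2. The remaining higher genes of the first 12 by p were Snap25 and Mir212, described below, Hcrtr1 and Nxph4, and Upk2, Pfn3, Mcart1, Serpina11 and Hist2h2aa3, 2.01-fold (Pfn3) to 2.75-fold (Mcart1) higher. Mcart1 and Hist2h2aa3 overlapped between the groups.

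Genes lower in IUO included several with clear separation. Slc7a1, a transporter of arginine and lysine, was at 4.27, 3.69, 4.06 and 1.58 FPKM in IUO and at 6.12, 12.9, 12.3 and 12.6 in PNO. The means were 3.40 ± 1.24 and 11.0 ± 3.27 FPKM (SD, n = 4), 3.24-fold lower in IUO (log2 -1.70, SE 0.36, limma p = 0.00111, exact permutation p = 0.0286, adjusted p = 0.484), and the rule was met in all 20 alternatives. F2 SAL libraries, at 9.55 to 15.5 FPKM, all lay above the IUO libraries. Ttc14 was at 2.59, 2.16, 2.78 and 2.23 FPKM in IUO and at 4.12, 6.54, 5.88 and 4.59 in PNO (log2 -1.07, SE 0.22, limma p = 0.000886, exact permutation p = 0.0286). Smc5, a subunit of the SMC5/6 complex of DNA repair, was at 2.38, 3.29, 2.12 and 3 FPKM in IUO and at 4.34, 7.66, 4.68 and 5.47 in PNO (log2 -1.0, SE 0.25, limma p = 0.00292, exact permutation p = 0.0286). Akr1b8, an aldo-keto reductase gene, was at 1.17, 0.60, 0.62 and 0.40 FPKM in IUO and at 1.52, 3.03, 2.31 and 2.13 in PNO (log2 -1.60, SE 0.40, limma p = 0.0028, exact permutation p = 0.0286). When all 24 libraries of the series entered one fit with a common estimate of the spread, 11 genes had an adjusted limma p under 0.05 between these groups. Ttc14 (adjusted p = 0.0294), Smc5 (0.046) and Akr1b8 (0.046) were among them, as was Sesn1 (adjusted p = 0.0294), which was not called. Sesn1, a stress-responsive sestrin gene, was at 5.32, 5.61, 6.21 and 3.78 FPKM in IUO and at 9.48, 9.68, 10.1 and 10.2 in PNO, 1.89-fold lower without overlap (log2 -0.93).

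Tmem54 and the mitochondrial genes Slc25a24, an ATP-magnesium carrier, and Ndufaf2, an assembly factor of complex I, also had no overlap. Tmem54 was at 1.165 ± 0.236 FPKM in IUO and 3.415 ± 1.45 in PNO (SD, n = 4), Slc25a24 at 0.8825 ± 0.228 and 2.08 ± 0.301, and Ndufaf2 at 2.045 ± 0.425 and 4.69 ± 1.87. Their limma p values were 0.00285, 0.00492 and 0.00545. The other lower genes of the first 12 by p were Smim15, Nexn, Cklf, Mir568 and Trappc2b. Trappc2b (ENSRNOG00000049062) was listed at 0 in IUO replicates 1, 2 and 4 and at 3.90 FPKM in replicate 3, against 2.82 to 8.44 in PNO. The other gene of the same name (ENSRNOG00000004419) was at 2.99 ± 0.944 FPKM in IUO and 3.61 ± 0.503 in PNO (SD, n = 4). Tctn3, a gene of the primary cilium, was also listed at 0 in IUO replicates 1, 2 and 4, with 2.07 FPKM in replicate 3 and 1.22 to 2.44 in PNO. The groups overlapped for Trappc2b and Tctn3, and Tctn3 was listed at 0 in all 4 F2 SAL libraries. IUO replicates 1, 2 and 4 held 6076, 6892 and 7532 genes listed at 0, against 5685 in IUO replicate 3 and 4782 to 5935 in PNO.

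**Figure D4:**
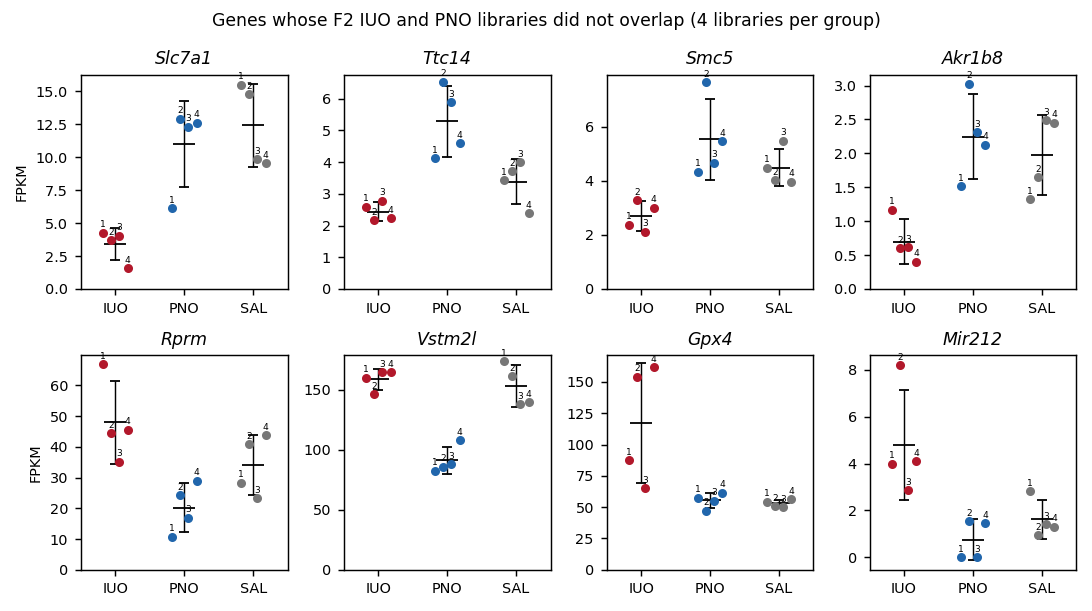
FPKM of 8 genes whose IUO and PNO libraries did not overlap, in each F2 library (points, numbered by replicate) with the group mean and SD (black). Slc7a1, Ttc14, Smc5 and Akr1b8 were lower and Rprm, Vstm2l, Gpx4 and Mir212 higher in IUO, and the SAL libraries lay nearer to PNO for Slc7a1 and to IUO for Vstm2l.

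A microRNA (miRNA) locus was among the genes called higher. Mir212 was at 4.00, 8.20, 2.86 and 4.10 FPKM in IUO and at 0, 1.55, 0 and 1.46 in PNO, 6.37-fold by the means (log2 3.50, SE 1.01, limma p = 0.00677, exact permutation p = 0.0286, adjusted p = 0.523). The groups did not overlap, and with the covariate of Y-linked genes the limma p of Mir212 rose to 0.0606. The F1 pups, which share no library with these, were at 6.27, 3.84, 3.13 and 3.73 FPKM in IUO and at 1.07, 0.42, 0.45 and 0.20 in PNO, also without overlap (log2 2.90, SE 0.41, limma adjusted p = 0.0477). The difference between the generations was 0.60 (SE 1.16, limma adjusted p = 0.957). F2 SAL libraries ranged from 0.93 to 2.83 FPKM. The values count RNA fragments over the locus, so mature miRNA was not measured. Mir132 lies beside Mir212, and it was between 0 and 1.04 FPKM in IUO and between 0 and 0.97 in PNO, under the minimum level. The 3p products of the pair share a seed, the stretch that pairs with target mRNAs, and are the only 2 of 724 mature rat sequences in the RefSeq table with it. They are shown for that reason, with bases 2 to 8 in capitals, from build GRCr8, chr10:60521811-60521832 and chr10:60522091-60522112, plus strand.
rno-miR-212-3p: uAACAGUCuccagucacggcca
rno-miR-132-3p: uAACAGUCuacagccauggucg
The other arm of the Mir212 hairpin has another seed.
rno-miR-212-5p: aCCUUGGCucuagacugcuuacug

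In all, 26 miRNA loci were tested and 4 were called, beside 0.879% of all genes. Mir212 was higher and Mir568, Mir3072 and Mir3561 were lower in IUO. Mir568 was at 8.38, 3.20, 10.1 and 5.77 FPKM in IUO and at 10.2, 17.0, 16.3 and 16.2 in PNO, so that IUO replicate 3 and PNO replicate 1 nearly met (log2 -1.20, SE 0.34, limma p = 0.00647, exact permutation p = 0.0286). In F1 its difference was 0.35, and the difference between the generations had a limma adjusted p of 0.755. Its mature sequence (GRCr8, chr11:70559921-70559940, minus strand) shares no seed with those above.
rno-miR-568: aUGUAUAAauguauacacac
Of 148 small RNA features with an Rfam name, 16 were called, 3 higher and 13 lower in IUO, beside 0.443% and 0.436% of all genes. Their median log2 difference was -0.44. Of all 59 genes called lower, 33 had a mean under 2 FPKM, and how far low levels enter these calls was not tested.

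Synaptic genes were mostly above 0 in their differences, with few past the test. Of 32 genes of synaptic scaffold and plasticity tested, 26 had a difference above 0, with a median of 0.17. An unadjusted limma p under 0.05 was found for 4, and 1 was called, beside 7.59% and 0.879% of all genes. Snap25, a SNARE protein of vesicle fusion, was at 441, 625, 537 and 555 FPKM in IUO and at 221, 317, 386 and 151 in PNO. The groups did not overlap (2.01-fold, log2 1.08, SE 0.27, limma p = 0.00294, exact permutation p = 0.0286), but with a ratio this close to the fold that a call needs, Snap25 was called in 12 of 20 alternatives. Syn1, which encodes the vesicle protein synapsin 1, was at 289, 325, 310 and 304 FPKM in IUO and at 218, 244, 213 and 228 in PNO. It too did not overlap, with a small spread within each group (1.36-fold, log2 0.44, SE 0.10, limma p = 0.00121, exact permutation p = 0.0286). Vamp2 and Dlgap3 were the other 2 under 0.05, with log2 differences of 0.32 and 0.43. All 4 had means above 50 FPKM. Among all genes with a mean of 50 FPKM or more, 17.2% were higher at an unadjusted limma p under 0.05, and the median was 0.13. After rescaling without the mitochondrially encoded genes the list median was 0.08. The median of the list turned to -0.14 without PNO replicate 1 and to -0.03 with a covariate of Y-linked genes, while Snap25 and Syn1 kept an unadjusted p under 0.05 with each library left out.

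Genes of cortical excitatory neurons, which are not typical of the striatum, had the largest median among the lists of neuronal genes. In tissue RNA, fewer cells of a type and less RNA per cell cannot be told apart. Of 31 tested, 29 had a difference above 0, with a median of 0.66. An unadjusted limma p under 0.05 was found for 3, and 2 were called, beside 7.59% and 0.879% of all genes. The called genes were Nov, a matricellular protein gene, at 70.4, 85.9, 44.6 and 69.8 FPKM in IUO and 9.53, 28.6, 38.0 and 55.6 in PNO (log2 1.25, SE 0.48, limma p = 0.0269, exact permutation p = 0.0571), and Hs3st2, a heparan sulfate sulfotransferase gene (log2 1.32, SE 0.51, limma p = 0.0280, exact permutation p = 0.114). Both overlapped, and the p rose above 0.05 when IUO replicate 2 (Nov, 0.0682) or IUO replicate 1 (Hs3st2, 0.0749) was left out. Foxp4, a forkhead transcription factor gene, was the other member under 0.05. The list median was 0.30 without PNO replicate 1 and 0.88 without PNO replicate 4. Fezf2, a transcription factor gene of deep cortical layers and one of the study's term genes, was at 25.1, 20.6, 13.5 and 5.88 FPKM in IUO and 2.88, 7.25, 2.73 and 19.1 in PNO (limma p = 0.0806, exact permutation p = 0.171). Rtn4rl2 and Nxph3, called higher outside this list, were also lowest in PNO replicate 1, at 3.51 and 4.17 FPKM against 10.4 to 38.9 and 10.5 to 34.2 in the other 7. With the covariate of Y-linked genes the limma p of Nxph3 was 0.162. The summed level of the cortical list was 729 to 1085 in IUO and 325 to 958 in PNO.

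Striatal identity genes leaned the other way. Of 40 projection neuron genes tested, 34 had a difference below 0, and the median was -0.22. An unadjusted p under 0.05 was found for 2, and 0 were called, beside 7.59% and 0.879% of all genes. Gnal, which encodes the G protein alpha subunit that couples dopamine and adenosine receptors to adenylyl cyclase in striatum, was at 37.8, 48.9, 49.6 and 50.8 FPKM in IUO and at 68.6, 77.1, 63.2 and 64.0 in PNO. The groups did not overlap (1.46-fold lower, log2 -0.55, SE 0.13, limma p = 0.00207, exact permutation p = 0.0286), and p stayed at 0.00883 or less over 20 alternatives. Gng7, its gamma partner, was at 83.8, 129, 91.2 and 158 FPKM in IUO and at 158, 173, 133 and 210 in PNO, with overlap (log2 -0.57, SE 0.22, limma p = 0.0288, exact permutation p = 0.0857). In F1 both differences had the opposite sign (0.40 for Gnal and 0.61 for Gng7), and the differences between the generations were -0.95 and -1.19 (limma adjusted p = 0.57 for Gnal and 0.634 for Gng7). Ppp1r1b, which encodes DARPP-32, was at 196, 301, 167 and 401 FPKM in IUO and 473, 298, 287 and 359 in PNO (limma p = 0.128, exact permutation p = 0.257). IUO replicate 1, which held the choroid plexus RNA, had the lowest striatal sum, and the list median was -0.08 without it and -0.05 without it and PNO replicate 4 together. Omitting both left Y-linked RNA almost only in the IUO libraries.

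**Figure D5:**
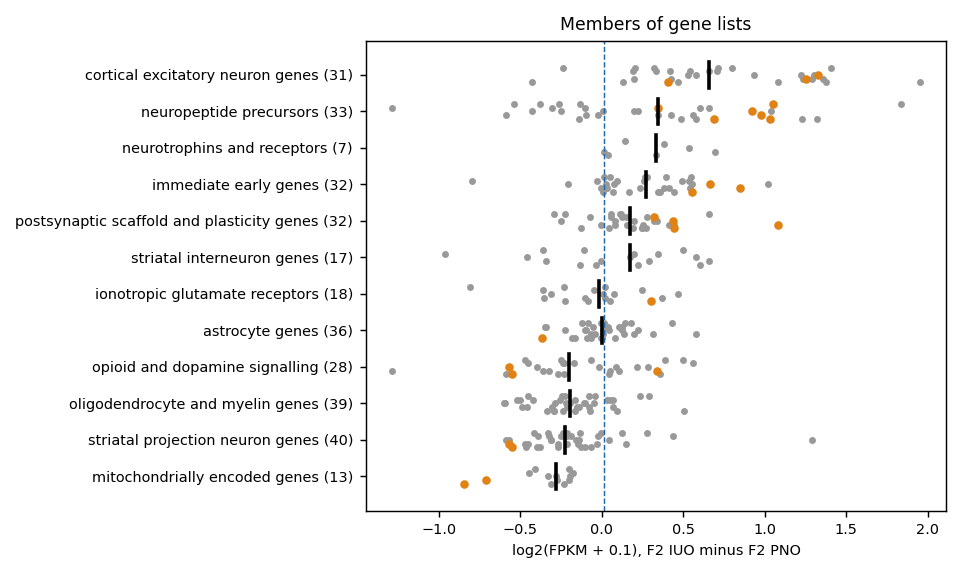
Log2 differences (IUO minus PNO) of the members of 12 gene lists, with the number tested in parentheses, the list median as a black bar and members with an unadjusted p under 0.05 in orange. The dashed line marks the median of all genes, 0.01, and the medians of these 12 lists run from 0.66 for cortical excitatory neuron genes to -0.28 for mitochondrially encoded genes. Among lists not drawn, ependymal and cilia genes (-0.32) and dividing cell and neuroblast genes (-0.30) had lower medians.

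In the list of opioid and dopamine signalling, 28 genes were tested and 0 were called. Arrb2, a beta-arrestin gene, was higher and Gnal and Gng7 lower at an unadjusted p under 0.05, 3 of the 28 beside 7.59% of all genes. Of 33 genes annotated to the response to morphine, 0 were called and 3 were higher at an unadjusted p under 0.05, beside 5.51% of all genes. Of 42 annotated to the response to cocaine, 0 were called, and 0 had an unadjusted limma p under 0.05.

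Of 32 immediate early genes, which report recent neuronal activity, 28 had a difference above 0. An unadjusted p under 0.05 was found for 3, and 0 were called, beside 7.59% and 0.879% of all genes. The list median of 0.27 shrank to 0.01 without PNO replicate 1. Jund, an AP-1 subunit gene, was at 118, 105, 119 and 114 FPKM in IUO and at 65.7, 61.2, 103 and 87.8 in PNO, without overlap (log2 0.55, SE 0.17, limma p = 0.00922, exact permutation p = 0.0286). Egr4 and Klf2 had log2 differences of 0.66 (limma p = 0.0399, exact permutation p = 0.114) and 0.85 (limma p = 0.0398, exact permutation p = 0.0571), and both overlapped. Nptx2, an activity-regulated pentraxin gene, was at 39.4, 33.4, 23.2 and 20.1 FPKM in IUO and at 8.76, 25.6, 33.4 and 18.1 in PNO (limma p = 0.201, exact permutation p = 0.286).

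In 4 other signalling lists 1 member each had an unadjusted p under 0.05, of 15, 18, 13 and 9 tested, beside 7.59% of all genes. Among 15 stress axis genes, Crhbp, whose product binds and sequesters CRF, was at 4.4, 4.19, 3.04 and 3.93 FPKM in IUO and at 2.11, 2.30, 2.47 and 2.70 in PNO, without overlap (1.62-fold, log2 0.67, SE 0.21, limma p = 0.0119, exact permutation p = 0.0286). Among 18 ionotropic glutamate receptor genes Grin1, the obligatory NMDA receptor subunit, was 1.23-fold higher (limma p = 0.0242, exact permutation p = 0.0286), and among 13 GABA-A receptor genes Gabra4 was lower (log2 -0.55, limma p = 0.0446, exact permutation p = 0.143). Among 9 serotonin receptor genes Htr2c was lower (log2 -0.39). No member of the metabotropic glutamate receptors (7 tested), acetylcholine receptors (9), clock genes (18) or neurotrophins and their receptors (7) had an unadjusted limma p under 0.05, so 0 were called in these 4 lists. All 7 neurotrophin genes had differences above 0, with a median of 0.33.

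Of 24 genes that write and read DNA methylation or deacetylate histones, 2 had an unadjusted p under 0.05 and 0 were called, beside 7.59% and 0.879% of all genes. Mbd2 was lower (log2 -0.35) and Hdac10 higher (log2 0.42). Of 23 imprinted genes 0 were called, and Ndn was higher (log2 0.34). In the list of methyl donor and one-carbon genes Bhmt was called, and Cbs, which diverts homocysteine to cystathionine, was higher (log2 0.56).

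Glial and vascular genes gave almost no difference past the test. Among astrocyte genes 36 were tested and 1, Gja1, the main astrocytic gap junction gene, was lower at an unadjusted p under 0.05 (log2 -0.37), beside 2.08% of all genes. None of the oligodendrocyte and myelin genes (39 tested), microglia and innate immune genes (29), vascular and mural genes (23), meningeal and fibroblast genes (23) or ependymal and cilia genes (21) had an unadjusted limma p under 0.05, so 0 of these were called. Of the ependymal and cilia genes 19 had a difference below 0, with a median of -0.32. Both alpha-globin genes, named Hba-a2, overlapped between the groups, and Aqp1, a water channel gene of the choroid plexus, was at 11.4 FPKM in IUO replicate 1, 9.91 in PNO replicate 4 and 0.38 or less in the other 6 libraries. Of the myelin genes 31 had a difference below 0, and their median of -0.19 turned to 0.02 both without PNO replicate 1 and with a covariate of Y-linked genes. Among 25 genes of dividing cells and neuroblasts Kif20a and Top2a were lower at an unadjusted p under 0.05, beside 2.08% of all genes, and 0 were called. In this list 18 genes had a difference below 0, with a median of -0.30. Il18, the gene of a pro-inflammatory cytokine outside these lists, was called lower, at 0.47, 1.01, 3.28 and 1.41 FPKM in IUO and 4.43, 3.96, 3.75 and 1.92 in PNO (limma p = 0.0288, exact permutation p = 0.0571), as was Tgfbr1, a TGF-beta receptor gene (limma p = 0.0359, exact permutation p = 0.0571). Both overlapped and lost the p under 0.05 without IUO replicate 1 (0.0705 and 0.0961).

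All 13 mitochondrially encoded genes had differences below 0, with a median of -0.28. Mt-nd4l had the largest difference (log2 -0.84, SE 0.27, limma p = 0.0112, exact permutation p = 0.0571), and Mt-atp8 also had an unadjusted p under 0.05. Without PNO replicate 1 the median was -0.17. Of 88 nuclear genes of respiratory chain subunits, 67 had differences above 0. Their median of 0.14 fell to 0.05 after rescaling without the mitochondrially encoded genes. At an unadjusted limma p under 0.05, 11 were higher and 0 lower, beside 5.51% and 2.08% of all genes. Among all genes with a mean of 50 FPKM or more, 17.2% were higher and the median was 0.13. Of 86 ribosomal protein genes, 3 were higher and 4 lower at an unadjusted limma p under 0.05.

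Of the 119 called genes, 60 had no usual gene symbol (34 higher and 26 lower), the Rfam features included. The smallest p among those higher belonged to AC111734.1 (10.2, 9.64, 6.41 and 8.18 FPKM in IUO, 2.38, 2.56, 3.37 and 3.71 in PNO), AABR07027722.1 (2.24-fold) and LOC100362384 (2.19-fold). Those lower were led by AC134224.1, a 7SK-like feature (RF00100, ENSRNOG00000058789) and AABR07019209.1. Under the annotation term translation 12 of 339 genes tested were called, beside 0.879% of all genes, and 9 of the 12 were such gene models.

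The F2 differences were also set against those of the F1 generation of both lineages. Unlike F2 pups, F1 pups met the drug themselves, those of IUO in utero and through the nursing dam and those of PNO through the nursing dam. In F1, 215 (1.59%) of the 13535 genes were called between IUO and PNO, 18.6% had an unadjusted limma p under 0.05 and 27 (0.199%) an adjusted one. In all, 12 genes were called in the same direction in both generations, which is 10.1% of the F2 and 5.58% of the F1 calls, with 1 gene called in opposite directions. Of the 12, Mir212 and Bhmt were higher and Tmem54 and Il18 lower in IUO in both, and the other 8 had no usual gene symbol. A limma interaction p under 0.05 was found for 813 genes (6.01%) before adjustment and for 0 after it. The smallest interaction p values belonged to AY172581.7, AY172581.10, Hebp1, Psma1 and Ube2e3. AY172581.7 and AY172581.10 had log2 differences of -0.26 and -0.28 in F2 and of -3.58 and -3.35 in F1. Hebp1, a heme-binding protein gene, was 0.61 higher in F2 IUO on the log2 scale and at -0.34 in F1 (limma, adjusted p of the interaction = 0.57). Rprm was at 48.02 ± 13.5 FPKM in F2 IUO and 20.2 ± 8.04 in F2 PNO (SD, n = 4), but at 23.8 ± 7.24 and 37.3 ± 14.3 in F1 (interaction 1.90, limma, adjusted p = 0.57). Adcyap1 likewise had a log2 difference of the opposite sign in F1, -0.54 (limma interaction, adjusted p = 0.755), whereas for Hcrtr1 the F1 difference was 0.60 and the adjusted p of the interaction was 0.928.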

How the data were processed

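RNA-Seq of NAc tissue gave 1 table per library, in which the authors deposited FPKM per gene together with gene names and annotation terms. The submitters' processing notes name HISAT2, SAMtools, StringTie and edgeR. Per the study's methods StringTie gave the FPKM, and the last of these tools the study's differentially expressed genes. Versions and the genome build are not given in the sources used here. Read counts were not analysed here and low FPKM values gave no whole-read steps, so the study's count-based test could not be run and limma was used on FPKM instead. Groups were taken from the labels. Genes with at least 1 FPKM in at least 4 of the 8 libraries entered limma 3.58.1 (R 4.3.3) as log2(FPKM + 0.1), 4 libraries against 4, with a trended eBayes prior and without covariates. A gene was called at an unadjusted p under 0.05 and a 2-fold ratio of mean FPKM, and Benjamini-Hochberg values were counted over all genes tested. Single genes also received an exact two-sided permutation test with 70 arrangements. Named genes were the 12 called with the smallest p in each direction, members of the gene lists, the study's own term genes, the 3 leading unnamed gene models in each direction and the 5 smallest interaction p values. Kiss1r, Vstm2l, Sesn1, Tctn3, Nxph3, Rtn4rl2, Ppp1r1b, Il18 and Tgfbr1 were named after their values were seen. The comparison and the lists were chosen with earlier results of these data known. Scripts were tested on simulated data. Other pseudocounts, filters, scalings, folds and fits and the omission of each library were tried. Sequences came from RefSeq (GRCr8).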

Additional observations from a re-analysis of the deposited data

Results flagged for a closer look

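Of 154 groups of 4 F2 libraries, taken over summed gene lists and named genes, 19 (12.3%) held a library whose gap to the nearest other exceeded Dixon's critical value. Chance gives about 1 in 20 for independent, normally distributed values. These were FPKM without a log scale, and lists and genes overlapped, so the 12.3% cannot be set against that rate. Most of these libraries were ones already described as standing apart. Choroid plexus genes summed to 12882.08 FPKM in IUO replicate 1 and to 7306.06 in PNO replicate 4. PNO replicate 4 was also the highest of its group in opioid and dopamine signalling genes (2458.47), a list that holds Pomc, and in Y-linked genes (30.2). PNO replicate 1 was the highest of its group in astrocyte genes (7504.1) and the lowest in postsynaptic scaffold and plasticity genes (2338.69) and in neurotrophins and their receptors (51.54). Among single genes, PNO replicate 1 was the lowest for Slc7a1 (6.12 FPKM) and Mir568 (10.17 FPKM) and the highest for Avp (47.59 FPKM).

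IUO replicate 3 was the highest of its group for Avp (85.59 FPKM), Trappc2b (3.9 FPKM) and Tctn3 (2.07 FPKM) and in DNA methylation and histone deacetylase genes (669.16), and the lowest for Nxph3 (18.5 FPKM). IUO replicate 1 was the lowest for Gnal, at 37.8 FPKM, and IUO replicate 4 the lowest in metabotropic glutamate receptor genes, at 40.68. PNO replicate 2 was the highest in blood genes, at 254.56, and PNO replicate 3 the highest for Pmch, at 16.12 FPKM. The cause of these values was not tested.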

How the results depend on the processing

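The 119 calls became 308 with a minimum of 0.1 FPKM, 521 with no filter beyond a value above 0 and 381 at 1.5-fold. With a covariate of Y-linked genes, added after seeing the data, 73 were called. With 1 library left out 100 to 184 were called, with 184 without IUO replicate 3 and 183 without PNO replicate 4. Genes with an adjusted p under 0.05 numbered 0 to 1 with 1 library left out (1, Trappc2b, without IUO replicate 3), 11 with all 24 libraries in 1 fit and 3 (RF02266, Eif2s3y and Ddx3) without IUO replicate 1 and PNO replicate 4, an omission chosen after seeing the data. That omission called 166 genes, of which 83 were among the 119. It left Y-linked genes at 30.5 to 37.0 summed FPKM in the IUO libraries and at 0.16 or less in the PNO libraries. Lineage and sex therefore cannot be told apart in that fit. Interaction counts at an unadjusted p, 813 as reported, ran from 634 to 1920 with 1 library left out (1920 without PNO replicate 1), and with an adjusted p they were 0 under every alternative run. Pmch turned to 0.33 with a pseudocount of 1, to 0.054 without both choroid plexus-rich libraries, and to 0.36, 1.20 and 0.64 without IUO replicate 1, IUO replicate 4 or PNO replicate 3, and ranged from -1.51 to 1.20 with 1 library left out. No other gene followed through these alternatives changed sign, but Gh1, Pomc and some other genes named by level were not followed. The sign of Pomc rested on PNO replicate 4, as given above. Without adjustment 205 values of named genes no longer passed p under 0.05 and 8 newly passed. Beside the genes given in the results, Cbs, Egr4, Eif2s3y, Gabra4, Gja1, Gng7, Grin1, Hdac10, Htr2c, Klf2, Mir3561, Mt-atp8, Nppa, Rtn4rl2, Vamp2 and Vgf rose above an unadjusted limma p of 0.05 without at least 1 library, to between 0.0565 (Gja1, without IUO replicate 4) and 0.127 (Gabra4, without PNO replicate 2). Some genes kept p under 0.05 with each library left out but lost it otherwise. With the covariate of Y-linked genes this held for Nxph4, Mir212, Erc1, Nxph3, Cklf, Dlgap3, Jund, Mir3072, Mt-nd4l and Serpina11 (0.052 to 0.162), and without both choroid plexus-rich libraries for Foxp4, Hist2h2aa3, Mcart1, Ndn, Nppc and Tctn3 (0.0529 to 0.0819). Mcart1 was at 0.166 with all 24 libraries in 1 fit. The causes were not tested. Replicate numbers are shared by the groups, but same-numbered libraries did not deviate together (correlations of -0.09, 0.17, -0.02 and -0.35), and a replicate block gave 102 calls and 0 adjusted. Depth is unknown, so how far it limits genes with low FPKM could not be assessed.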
